A study of Mus musculus with 4 samples.

Results

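The microRNAs described here are those best known from the pancreas and other endocrine tissue: miR-375, the miR-7 pair and the miR-216 and miR-217 cluster. They were chosen by name, as all assays for miR-375, miR-7, miR-7a, miR-7b, miR-216a, miR-216b or miR-217, and 6 of the 375 microRNA assays read in every sample met that rule. Each was a mouse assay (mmu-miR-375, mmu-miR-7a, mmu-miR-7b, mmu-miR-216a, mmu-miR-216b and mmu-miR-217). The RNA came from whole C57BL/6 embryos at E18.5, close to birth. The study set 2 wild-type samples (WT replicates 1 and 2) against 2 samples lacking estrogen receptor alpha (ERaKO replicates 1 and 2), the nuclear hormone receptor that Esr1 encodes. Both groups shared strain, stage and tissue, and no treatment is given in the labels. The labels do not say which allele was used, whether embryos were pooled, or what sex they were. The p-values therefore cover the spread among the 4 samples alone, which may be partly technical. TaqMan real-time PCR gives a threshold cycle (Ct) per well, which falls by about 1 for each doubling of the RNA.

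MicroRNAs pair with messenger RNAs through a short seed at their 5′ end and lower the output of those targets. The microRNA miR-375 is abundant in pancreatic islets, where it restrains insulin secretion, and is also made in the pituitary and in endocrine cells of the gut. Members of the miR-7 family are enriched in islets, in the pituitary and hypothalamus and in some neurons, whereas miR-216a, miR-216b and miR-217 are typical of the acinar cells of the exocrine pancreas. The pancreas is a small part of a whole embryo, and in such RNA fewer cells of a type and less RNA per cell cannot be told apart.

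The mature sequences show which members could share targets and which assays face near-identical RNAs. They are given 5′ to 3′ from RefSeq (GRCm38.p6), with the seed (bases 2 to 8) in capitals, and the product of the 5′ arm is shown for 5 members because their older names without an arm stand for it. The files do not give the assay sequences. For miR-375, whose older name stands for a product of the 3′ side, mmu-miR-375-3p is named only and the hairpin is printed, with all bases after its 5′ arm product in capitals.
mmu-miR-7a-5p: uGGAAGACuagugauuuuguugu
mmu-miR-7b-5p: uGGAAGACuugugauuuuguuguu
mmu-miR-216a-5p: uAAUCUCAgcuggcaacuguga
mmu-miR-216b-5p: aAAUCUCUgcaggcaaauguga
mmu-miR-217-5p: uACUGCAUcaggaacugacugga
Mir375 hairpin: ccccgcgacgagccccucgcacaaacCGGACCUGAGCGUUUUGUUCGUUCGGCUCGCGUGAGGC

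The 2 miR-7 members have the same seed, and among 1679 mature mouse microRNAs of the table no other has it. Counted from 1 at the 5′ end, miR-7a and miR-7b differ by A10U over the 23 positions they share, and miR-7b has 1 more base at its 3′ end. How far each assay reads the other RNA was not tested, so their separate levels are uncertain. The 22 bases of miR-216a and miR-216b differ at 4 positions (U1A, A8U, U11A and C17A), so their seeds match except at the last seed base. The seed of miR-217 is different again, and the seeds of miR-216a, miR-216b and miR-217 are each held by 1 mature microRNA of the table.

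In the genome (GRCm38.p6), 3 members are neighbours on chromosome 11, in the order miR-216b, miR-216a, miR-217 on the plus strand within 17645 bases. The hairpin of miR-216b (chr11:28746191-28746276) lies in the span of the long noncoding RNA gene Mir217hg and overlaps Mir216c, which is annotated on the other strand. Those of miR-216a (chr11:28757012-28757083) and miR-217 (chr11:28763728-28763835) lie in the span of another noncoding gene, Gm40818. The mature miR-7a comes from both Mir7-1, on the minus strand inside the span of the protein-coding gene Hnrnpk (chr13:58392779-58392886), and Mir7-2 (chr7:78888277-78888373, plus strand). The hairpins of Mir7-2, Mir7b (chr17:56242988-56243098, plus strand) and Mir375 (chr1:74900658-74900721, minus strand) overlap no other annotated gene. Mir375 lies between the genes Cryba2 and Cfap65. Whether the overlapped stretches are exon or intron was not analysed here.

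All 4 samples gave signal on most of the panel, with 254 to 290 microRNAs detected at a Ct of 35 or lower and 229 detected in all samples. Only 2 samples per group limit the precision. WT replicate 1 stood apart. Its Ct values correlated with those of the other samples at 0.939 to 0.954 (Pearson, across the 229 assays, which are not independent replicates), against 0.978 to 0.989 among the others. Its wells other than U6 hold a constant of 0.273, and once it was subtracted, 90.0% of the amplified readings fell within 0.1 of a whole cycle number, against 21.0% to 26.5% in the other samples. For the 6 members that distance was 0.007 to 0.05 cycles. The readings of miR-7a, miR-7b and miR-216b in that sample were 34.235, 34.231 and 34.234, so it does not resolve these 3 from each other. Differences between the genotypes are therefore also given without that sample.

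Among the members, miR-375 was by far the first to amplify. Its Ct was 31.2 and 28.2 in WT replicates 1 and 2, and 29.0 and 28.6 in ERaKO replicates 1 and 2. In each sample it came at least 3.01 cycles before the next member, and by Ct it ranked between 132 and 180 among the 283 to 336 microRNAs that amplified in a sample, near the middle of the panel. WT replicate 1 was late and the other 3 samples lay within 1 cycle.

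The miR-7 pair amplified later. Ct values of miR-7a were 34.2 and 31.9 in WT and 32.6 and 32.9 in ERaKO embryos, and those of miR-7b were 34.2 and 33.5 in WT and 32.6 and 32.4 in ERaKO embryos. Both ERaKO samples therefore gave miR-7b before both WT samples, while for miR-7a the ERaKO samples lay between the WT samples.

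The acinar cluster was split. The Ct of miR-216b was 34.2 and 32.5 in WT and 32.7 and 32.3 in ERaKO embryos, so it was detected in every sample. Its neighbour miR-217 gave 36.3 and 34.1 in WT and 35.2 and 33.3 in ERaKO embryos, past the detection limit of 35 in replicate 1 of each genotype. For miR-216a, Ct values were 35.3 and 34.8 in WT, 38.2 in ERaKO replicate 2, and ERaKO replicate 1 did not amplify. At a Ct of 35 or lower, 4 of the 6 members were thus detected in all samples (miR-375, miR-7a, miR-7b and miR-216b). For comparison, 61.1% of all 375 microRNAs passed. Each of the 6 was detected in WT replicate 2.

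**Figure D1:**
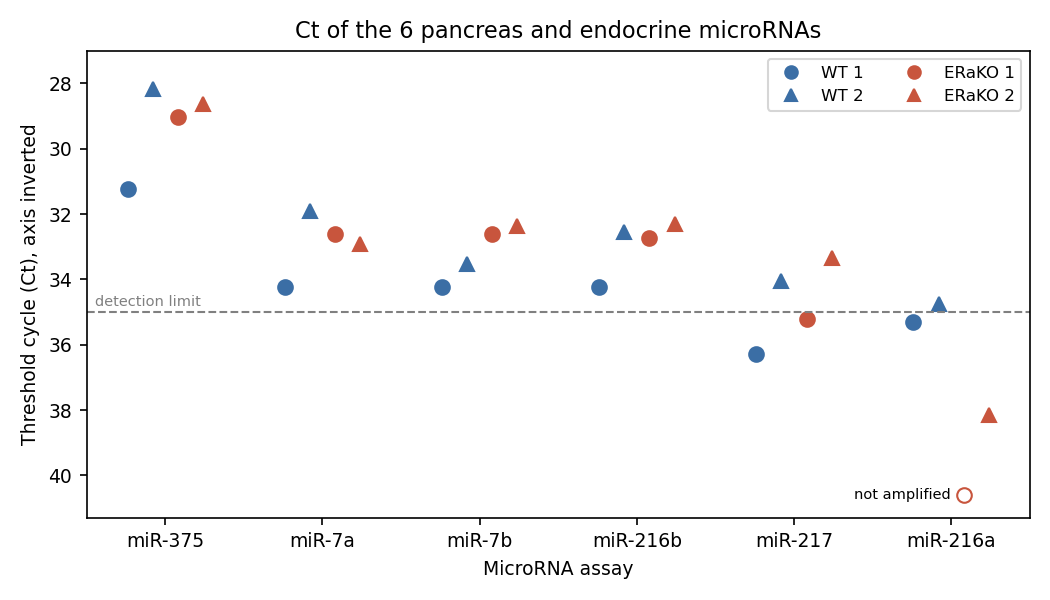
Threshold cycle (vertical axis, inverted so that more RNA is higher) of the 6 members (horizontal axis) in each of the 4 samples, 1 point per well, with the detection limit of 35 dashed and an open symbol for the well that did not amplify. The points of miR-375 lie above those of the other members, and those of miR-216a are split between WT (35.3 and 34.8) and ERaKO (38.2 and not amplified).

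To set samples side by side, each was centred on the median Ct of its 229 detected microRNAs, and the relative level is minus that centred Ct in log2 units. On this scale the order over the 4 samples was miR-375 (-1.11 ± 0.59), miR-7a (-4.76 ± 0.33), miR-216b (-4.80 ± 0.34), miR-7b (-5.03 ± 0.80) and miR-217 (-6.57 ± 0.72, mean ± SD, n = 4). This order leaves out miR-216a, which did not amplify in ERaKO replicate 1. The step from miR-375 to miR-7a was 3.65 ± 0.52 log2 units within a sample (SD, n = 4) and had the same direction in 4 of 4 samples. The steps from miR-7a to miR-216b (0.04 ± 0.51) and from miR-216b to miR-7b (0.23 ± 0.52; SD, n = 4) were smaller than their spread, each with 2 of 4 samples in that direction. The step down to miR-217 was 1.54 ± 0.96 (SD, n = 4) and held in 4 of 4 samples. Assays of unknown efficiency are compared here, so these are orders of amplification rather than of molecules.

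The comparison of ERaKO with WT embryos asks which microRNAs differ in level when the receptor is missing. None of the 4 tested members passed it, and none of the 229 microRNAs did (0% at a limma adjusted p under 0.05; 10 had an unadjusted p under 0.05, which is 4.37%). The member with the largest difference was miR-7b, at 2.16-fold of WT, followed by miR-216b at 1.49-fold, miR-375 at 1.48-fold and miR-7a at 1.01-fold. The fit gave every assay the same standard error of 0.64 log2 units, and 2.38-fold would have been needed for an unadjusted p of 0.05.

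Levels of miR-7b were -5.00 and -6.17 in WT and -4.41 and -4.54 in ERaKO embryos (log2 units). The 2 ERaKO samples lay close together and above both WT samples, which lay farther apart. The means were -5.59 ± 0.83 in WT and -4.48 ± 0.09 in ERaKO (SD, n = 2 each). The log2 fold change was 1.11 (SE 0.64, 95% interval -0.14 to 2.36; limma unadjusted p = 0.0826, adjusted p = 0.939), the seventh highest of the 229. Without WT replicate 1 it was 1.37 and without WT replicate 2 it was 0.64.

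For miR-7a, which carries the same seed, levels were -5.00 and -4.54 in WT and -4.42 and -5.08 in ERaKO embryos. The genotypes overlapped fully. The log2 fold change was 0.02 (SE 0.64, 95% interval -1.23 to 1.27; limma adjusted p = 0.986), an interval that leaves room for a change of more than 2-fold either way. Without WT replicate 1 it was -0.54.

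The difference between these near-identical RNAs can be read within each sample, where no scaling enters. The Ct of miR-7a minus that of miR-7b was 0.00 and -1.64 cycles in WT replicates 1 and 2, and 0.01 and 0.54 in ERaKO replicates 1 and 2. WT replicate 2 stood alone with miR-7b later than miR-7a. WT replicate 1 and ERaKO replicate 1 were 0.01 apart, an order that WT replicate 1, with readings near whole cycles, does not resolve. The mean difference moved from -0.82 ± 1.16 to 0.27 ± 0.37 (SD, n = 2 each), a change of 1.09 cycles (1.91 without WT replicate 1). The exact permutation test, two-sided, gave p = 0.333, the smallest that 2 against 2 samples can give. That value rests on the unresolved order of WT replicate 1 and ERaKO replicate 1. This pair was set side by side after its values were seen.

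Levels of miR-375 were -1.99 and -0.80 in WT and -0.85 and -0.81 in ERaKO embryos. WT replicate 2 and both ERaKO samples were nearly level, and WT replicate 1 lay more than 1 log2 unit below them. The means were -1.40 ± 0.84 in WT and -0.83 ± 0.03 in ERaKO (SD, n = 2 each), with a log2 fold change of 0.57 (SE 0.64, 95% interval -0.68 to 1.82; limma adjusted p = 0.939). Its direction rested on WT replicate 1: without that sample it was -0.36, and without WT replicate 2 it was 1.28.

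Levels of miR-216b were -5.00 and -5.18 in WT and -4.55 and -4.49 in ERaKO embryos. Both pairs lay close together and did not overlap on this scale, though they did when scaled to the controls. The reading of WT replicate 1 lay 0.039 cycles from a whole cycle, as most of its readings did. The small WT spread and the gap to ERaKO are therefore uncertain. The means were -5.09 ± 0.13 in WT and -4.52 ± 0.04 in ERaKO (SD, n = 2 each). The log2 fold change was 0.57 (SE 0.64, 95% interval -0.68 to 1.82; limma adjusted p = 0.939). Without WT replicate 1 the value was 0.33. Of the 4 tested members, miR-7b and miR-216b had both ERaKO samples above both WT samples, an arrangement that 33.2% of all 229 microRNAs also had; none had both below, as 6.11% of the 229 did.

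**Figure D2:**
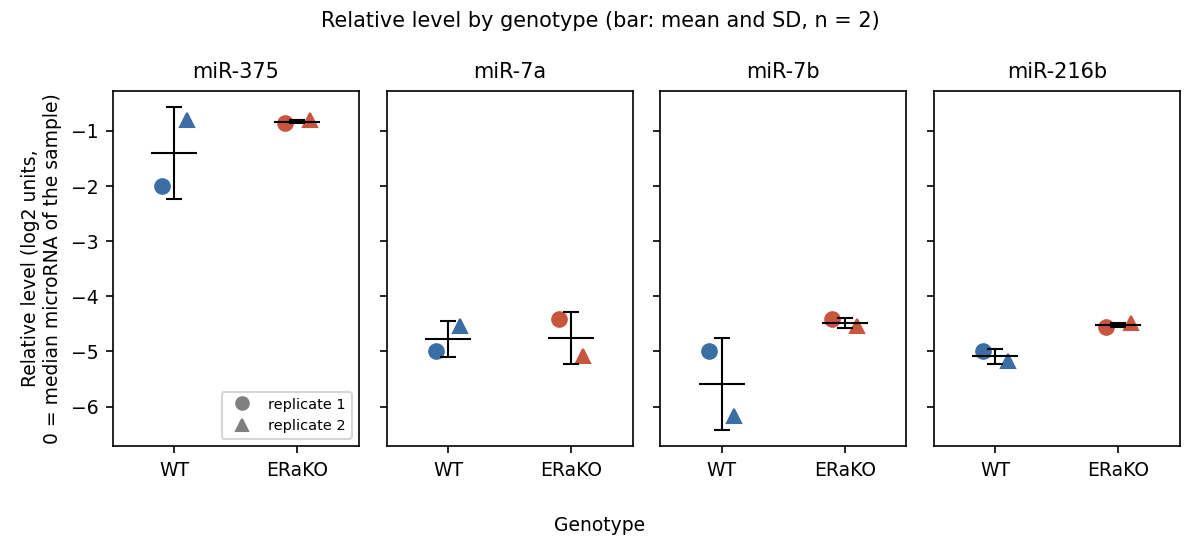
Relative level in log2 units (vertical axis, 0 is the median microRNA of a sample) of the 4 tested members by genotype, with 1 point per sample and a bar for the mean and SD of 2 samples. The ERaKO points of miR-7b and miR-216b lie above both WT points, those of miR-7a overlap, and for miR-375 WT replicate 1 (-1.99) lies below the other 3 samples.

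The other 2 acinar members were outside the test. Relative levels of miR-217 were -7.05 and -6.69 in WT and -7.02 and -5.52 in ERaKO embryos, with ERaKO replicate 2 highest and the genotypes overlapping. Its Ct minus that of its neighbour miR-216b was 2.05 and 1.51 cycles in WT and 2.47 and 1.03 in ERaKO embryos. This difference changed by -0.02 cycles between the genotypes, and by 0.24 without WT replicate 1 (exact permutation test, two-sided, p = 1, where the smallest possible is 0.333).

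For miR-216a, relative levels were -6.06 and -7.40 in WT and -10.33 in ERaKO replicate 2, the lowest of the 3 readings, and ERaKO replicate 1 has none. It came 1.06 and 2.22 cycles after miR-216b in the WT samples and 5.84 cycles after it in ERaKO replicate 2. While both ERaKO samples of miR-216b lay above both WT samples, the only ERaKO reading of miR-216a lay below both of its WT readings. With undetermined wells set to cycle 40 and no filter, its log2 fold change was -4.34 (limma unadjusted p = 0.012, adjusted p = 0.875 over 375 microRNAs), a value that depends on that setting, and 0% of the 375 passed while 2.13% had an unadjusted p under 0.05. In the same fit miR-217 had a log2 fold change of 0.60 (limma unadjusted p = 0.467). Without WT replicate 1 the values were -4.01 for miR-216a (limma adjusted p = 0.71) and 0.09 for miR-217, a setting chosen after seeing the data. Among the 50 microRNAs that were outside the test but amplified in both WT samples, 15 (30%) lay lower in both ERaKO samples. A well that did not amplify counted as lower here, and 8 (16%) had a gap at least as large as that of miR-216a. These 50, miR-216a included, were chosen by amplification in WT alone. That choice favours lower ERaKO levels in advance, so the shares are not a neutral background. At Ct values this late a well starts from few molecules, and with 1 well per assay the spread of such readings is unknown.

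**Figure D3:**
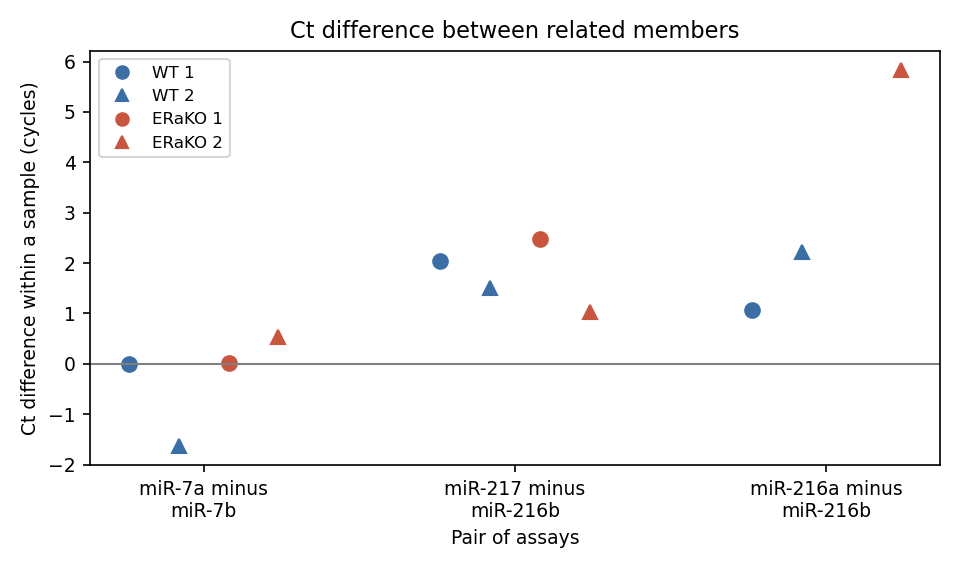
Difference in Ct between 2 members of the same sample (vertical axis, in cycles) for 3 pairs of related members, 1 point per sample. The miR-217 and miR-216b difference overlaps between genotypes, miR-7a minus miR-7b is lowest in WT replicate 2 (-1.64), and miR-216a minus miR-216b is highest in ERaKO replicate 2 (5.84), with no point for ERaKO replicate 1.

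Scaled to the average of the 5 control small RNAs (snoRNA135, snoRNA202, U87, Y1 and MammU6) instead of the median microRNA, miR-7b stood at -9.63 and -9.37 in WT and -8.30 and -7.92 in ERaKO embryos, again without overlap. The difference of means was 1.39 log2 units (-9.50 ± 0.18 and -8.11 ± 0.27; SD, n = 2 each), with an exact permutation p = 0.333, two-sided. For miR-375 (-6.62 and -4.00 in WT, -4.74 and -4.18 in ERaKO) and miR-216b (-9.63 and -8.38 in WT, -8.44 and -7.87 in ERaKO) the difference was 0.85 each, and on this scale the genotypes overlapped for both. For miR-7a it was 0.30. Without WT replicate 1 these differences were 1.26 for miR-7b, 0.22 for miR-216b, -0.46 for miR-375 and -0.65 for miR-7a. Exact permutation p-values were 1, 0.667 and 1 for miR-375, miR-216b and miR-7a, before any adjustment over the 4 members. The median fold change of all 229 microRNAs moved too, from 0.26 with median centring to 0.54 with control scaling and -0.05 with centring on the average profile. Set against those medians, miR-7b lay above in each (1.11, 1.39 and 0.80). These scalings each shift all assays of a sample by 1 amount. The distance of miR-7b from the median is thus fixed, and they are not separate checks of it.

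**Figure D4:**
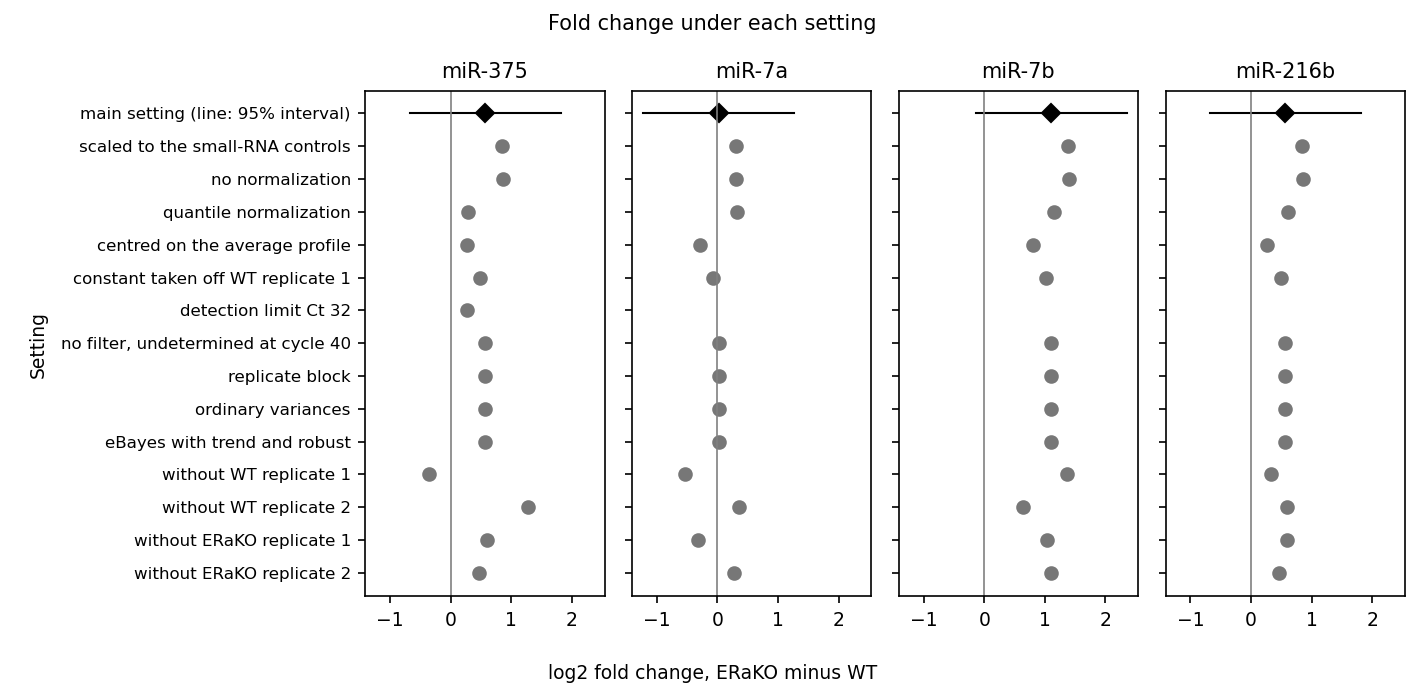
Log2 fold change of ERaKO minus WT (horizontal axis) of the 4 tested members under the main setting (diamond, with its 95% interval) and each alternative (circles), 1 line per setting; at a Ct limit of 32 only miR-375 has a value. All points of miR-7b (0.64 to 1.40) and miR-216b (0.26 to 0.86) lie above 0, and those of miR-375 and miR-7a fall on both sides.

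The readings of the members differed in profile across the samples, but with 1 well per assay this cannot be told apart from spread between wells. As a measure of likeness, the relative level minus its own mean was compared by root mean square difference over the 4 samples. In this description all assays share the same RNA samples and scaling. Among the members the closest were miR-7a and miR-216b (0.44 log2 units) and the farthest were miR-375 and miR-7b (0.88), and the same-seed pair miR-7a and miR-7b was 0.82 apart. Outside the members, miR-375 was most like mmu-miR-139-5p (0.06), mmu-miR-335-3p (0.09) and mmu-miR-150 (0.11). For miR-7a these were rno-miR-758 (0.07), mmu-miR-18a (0.09) and mmu-miR-450a-5p (0.13). For miR-216b they were mmu-miR-376c (0.11), mmu-miR-337-5p (0.14) and mmu-miR-191 (0.14). The profile of miR-7b had no neighbour as close, the nearest being rno-miR-196c (0.24), mmu-miR-345-5p (0.30) and mmu-miR-125a-3p (0.32).

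Other microRNAs known from islet cells or from tissues that surround the pancreas give the setting. The tested members had a median log2 fold change of 0.57, against 0.26 over all 229 microRNAs, and 3 of the 4 lay above 0.26. Without WT replicate 1 both medians were near 0 (-0.01 and -0.03), and 2 of the 4 lay above the latter. Of 13 other microRNAs linked to islets, 11 were tested, 0 rose and 0 fell, and the median was 0.23 (0.02 without WT replicate 1). They ran from mmu-miR-124 (-0.92; -0.62 without that sample), a neuronal microRNA that islets also express, to mmu-miR-184 (0.56; 0.15 without it). All 4 microRNAs of liver and gut, which arise beside the pancreas from the endoderm, were tested. None passed, and their median was 0.47 (0.13 without WT replicate 1), from mmu-miR-194 (0.22; 0.20 without that sample) to mmu-miR-122 (0.78; 0.28 without it), the main microRNA of hepatocytes. Of 5 neural microRNAs, relevant because neurons make miR-7, 4 were tested and 0 passed. Their median was 0.06 (-0.17 without WT replicate 1), from mmu-miR-124 again to mmu-miR-138 (1.39; 0.39 without WT replicate 1). As markers of liver, neural and endocrine tissue, miR-122, miR-124 and miR-375 were detected in every sample of both genotypes. Whether the amount of any such tissue differed between samples, and its part in the values above, was not tested.

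**Figure D5:**
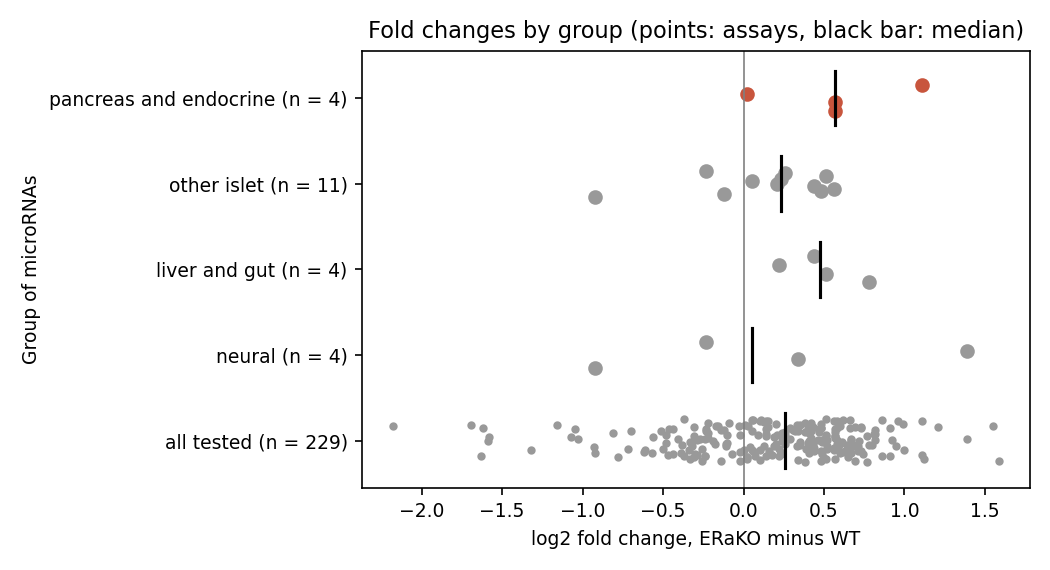
Log2 fold change of ERaKO minus WT (horizontal axis) for the 4 tested pancreas and endocrine members, 3 other groups and all 229 tested microRNAs, with 1 point per assay and a black bar at the median. The members lie between 0.02 and 1.11, inside the range of all microRNAs (-2.18 to 1.59).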

How the data were processed

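MicroRNAs were read in 4 samples of whole-embryo RNA (TRIzol) by TaqMan PCR of 40 cycles (Applied Biosystems 7900HT), per the labels' protocols. Per the file headers, the authors deposited threshold cycles (Ct). How the threshold and baseline were set, and whether values were normalized, is not given in the sources used here; they were taken as raw. The 4 U6 wells were averaged. Undetermined wells, and wells at 40.3 in WT replicate 1, were treated as not amplified. The constant of 0.273 in that sample was kept.

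MicroRNAs with a Ct of 35 or lower in all samples were centred on each sample's median and tested with limma 3.58.1 in R 4.3.3 (lmFit, eBayes, two-sided, genotype alone in the model), and p-values were adjusted by Benjamini-Hochberg over all 229. A fold change takes 1 cycle as a doubling. The procedure was tested on simulated data, but the outcome is not given here and lends the results no support. Leaving out a sample repeats filter and centring, and a genotype left with 1 sample is assumed to vary like the other. Python 3.11.15, pandas 2.3.3 and matplotlib 3.10.9 were used. Sequences were matched by name to RefSeq (GRCm38.p6).

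Named were all members, the 3 most alike microRNAs of each tested member, the highest and lowest of each other list, and the controls. Members and lists were chosen with earlier results of these data known.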

Additional observations from a re-analysis of the deposited data

How the results depend on the processing

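No alternative brought a tested member past an adjusted p of 0.05. Fold changes of miR-7b and miR-216b were above 0 in 13 of 13 alternatives each, but these are not separate checks. For the tested members, dropping the filter, adding the replicate number to the model or changing the variance estimate cannot move the fold change. Scaling to the controls, no normalization and centring on the average profile shift all assays by a common amount. All alternatives reuse the same samples, and in the main setting 156 of all 229 microRNAs were also above 0. That of miR-7a turned to -0.29 with centring on the average profile and -0.07 with the constant taken off WT replicate 1, and ran from -0.54 to 0.36 when single samples were left out (-0.32 without ERaKO replicate 1). That of miR-375 ran from -0.36 to 1.28 when single samples were left out, the low end being without WT replicate 1 and the high end without WT replicate 2; it was above 0 in 13 of 14 alternatives. The replicate number as a replicate block called 1 of the 229 microRNAs, not a member (mmu-miR-324-3p, limma adjusted p = 0.00578), and gave miR-7b an adjusted p of 0.449. Deviations of same-numbered samples correlated at 0.37 across assays, but the labels do not explain the numbers and there are only 2 of each, so no pairing was assumed. The other alternatives that kept all samples, and each fit without 1 sample, called 0. An ordinary t-test, with the variance of each assay alone in place of the shared one, was also run. Its unadjusted p-values were 0.202 for miR-7b, 0.0262 for miR-216b, 0.441 for miR-375 and 0.968 for miR-7a (adjusted 0.785 to 0.983). The value for miR-216b rests on a small WT spread, which is uncertain because WT replicate 1 was read near whole cycles. At a Ct limit of 32, 1 of 6 members and 47.2% of the 375 microRNAs were detected in all samples, and at 38 these were 5 of 6 and 69.6%. Apart from miR-375, and miR-7a in WT replicate 2, every member reading came after a Ct of 32, and with 1 well per assay this limits the precision. The cause of these changes was not tested.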
